A study of Mus musculus with 2 samples.

Results

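The genes described here are 10 angiogenic growth factors and their receptors, measured in mouse peritoneal macrophages given the solvent DMSO or GW3965. They were picked by symbol from the 50608 rows of the deposited table, with it already known that Vegfa was clearly higher with GW3965, so every value of theirs in this contrast is a description with no test. All 10 symbols had a row: the ligands Vegfa, Vegfb, Vegfc, Pgf, Pdgfa, Pdgfb and Hbegf, the receptor Flt1, and the co-receptors Nrp1 and Nrp2.

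GW3965 is a man-made ligand that switches on the liver X receptors (LXRs), nuclear receptors that sense oxidised cholesterol. The libraries compare RNA levels with and without it. The DMSO group and the GW3965 group had 1 RNA sequencing library each. Cells of both groups were from strain C57BL6J, from male and female animals combined, at a stage recorded as embryonic day 15.5. No genetic change, dose or length of treatment is given in the sources used here. The column read as GW3965 shares only the opening letters of its name with that sample's label, and every statement on GW3965 rests on this match. The LXR targets Abca1 (19.9 FPKM under DMSO and 261 under GW3965) and Abcg1 (45.3 and 153 FPKM) were higher in that column, and so were all 6 LXR targets looked at, by at least 1.5-fold.

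Macrophages can supply growth factors to blood vessels. Vascular endothelial growth factor A, the product of Vegfa, drives the growth and leakiness of vessels through the tyrosine kinase receptor KDR, and it also binds FLT1, which holds it tightly and is also made as a soluble form. PGF and VEGFB bind FLT1, while VEGFC acts mainly through FLT4 on lymphatic vessels. The neuropilins NRP1 and NRP2 have no kinase of their own. They present VEGF to its kinase receptors and, with plexins, receive class 3 semaphorins. Platelet-derived growth factors act on PDGFRA and PDGFRB of fibroblasts and mural cells, and the heparin-binding factor HBEGF acts on EGFR and ERBB4. Oxygen supply is the best known control of Vegfa, through the factors HIF1A and EPAS1.

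The stretches just before the starts of Vegfa and its paralogue Vegfb are shown because these ligands stood at like levels in DMSO and at unlike levels in GW3965. They are the 250 bases upstream of the RefSeq start on GRCm38.p6, written 5′ to 3′ along each gene's minus strand, at chr17:46032378-46032627 for Vegfa and chr19:6987652-6987901 for Vegfb. Capitals mark GGGCGG, the GC box bound by SP factors, and AGGTCA, the core letters that nuclear receptors such as LXR bind, on either strand.
Vegfa: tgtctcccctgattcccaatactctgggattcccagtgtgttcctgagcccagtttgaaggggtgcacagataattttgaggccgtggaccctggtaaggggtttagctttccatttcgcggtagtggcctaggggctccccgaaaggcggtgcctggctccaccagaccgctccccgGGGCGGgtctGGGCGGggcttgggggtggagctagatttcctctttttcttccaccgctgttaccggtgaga
Vegfb: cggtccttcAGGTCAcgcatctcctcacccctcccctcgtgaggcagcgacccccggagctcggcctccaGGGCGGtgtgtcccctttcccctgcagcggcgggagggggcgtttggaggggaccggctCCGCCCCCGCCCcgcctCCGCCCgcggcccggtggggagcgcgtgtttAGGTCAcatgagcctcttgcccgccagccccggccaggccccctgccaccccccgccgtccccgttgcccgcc
The Vegfa stretch held 2 GC boxes, which began 72 and 62 bases before the start, and no AGGTCA. The Vegfb stretch held 4 GC boxes, of which 2 lie end to end, and 2 copies of AGGTCA, which began 241 and 73 bases before the start. Neither held the LXR element, searched as 2 copies of AGGTCA with any 4 bases between them, nor did the windows of the other 6 genes with a match in the RefSeq table, Vegfc, Pgf, Pdgfa, Flt1, Nrp1 and Nrp2, taking the start nearest the annotated gene start. The start used lay 2426 bases from the annotated gene start for Pdgfa, 477 for Pgf and 469 for Nrp1, and at most 74 for the others. Among these 8 windows AGGTCA was in 2 (Vegfb and Nrp1), the hypoxia element core GCGTG in 6 (all but Vegfa and Vegfc), its other form ACGTG in 0 and GGGCGG in 8. Of 32851 windows of that length in the table, 14.0% held AGGTCA, 0.0152% the LXR element, 28.2% GCGTG, 16.6% ACGTG and 32.7% GGGCGG. Vegfa, Pgf and Pdgfa each have a second window. That of Vegfa, for a start 7206 bases inside the gene, held 1 ACGTG, 1 GCGTG, 1 GGGCGG and no AGGTCA, and those of Pgf and Pdgfa held none of these but 1 GGGCGG at Pdgfa. No window was used for Pdgfb and Hbegf. At a share of 0.0152%, finding no LXR element in 8 windows carries no weight. A match is a run of letters only, and a missing match says nothing about sites elsewhere or about inexact sites in these windows.

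Values are FPKM, read counts divided by gene length and by the reads of the library, so that levels of different genes can be set side by side as far as the authors' gene lengths hold. The best estimate of depth from the steps of the values was about 102000000 reads for DMSO and 75300000 reads for GW3965. Only 235 of 9256 rows pointed to exactly this depth, against 177 at the next best multiple of the factor between the libraries and 74 at the next best length reduction. The read numbers and counting intervals rest on this estimate, while FPKM values and ratios do not. On the same estimate, the lengths the authors used for 8 of the 10 genes were not those of GENCODE M21, and those for Nrp1 and Nrp2 were not settled. Genes with a mean of 1 FPKM or more over the 2 libraries are called measured. A measured gene counted as higher or lower when (GW3965 FPKM + 1)/(DMSO FPKM + 1) passed 1.5-fold. By this rule 6 of the 10 genes were measured, 2 of them, Vegfa and Nrp1, were higher in the GW3965 library and 0 were lower. Of all 11889 measured rows 3.46% were higher and 0.0757% lower. At 2-fold these shares were 0.984% and 0%, and over the 8866 measured rows left without NONCODE, Gm and Rik rows they were 2.2% and 0.0451% at 1.5-fold. Since Vegfa chose the list nothing is read from the share among its members. The GW3965 column was higher as a whole, with a median ratio of 1.25 and a median log2 ratio on the scale with 1 FPKM added of 0.24. Log2 ratios with that median taken off are called centred. Centred, 1.38% of the 11889 rows lay above the limit and 0.336% below, and Vegfa and Nrp1 were still higher. The median log2 ratio over the 6 measured genes was 0.36, and 0.11 once centred. No difference here has a replicate check, as each group is a single library. In bulk RNA, fewer cells of a type and less RNA per cell cannot be told apart.

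**Figure D1:**
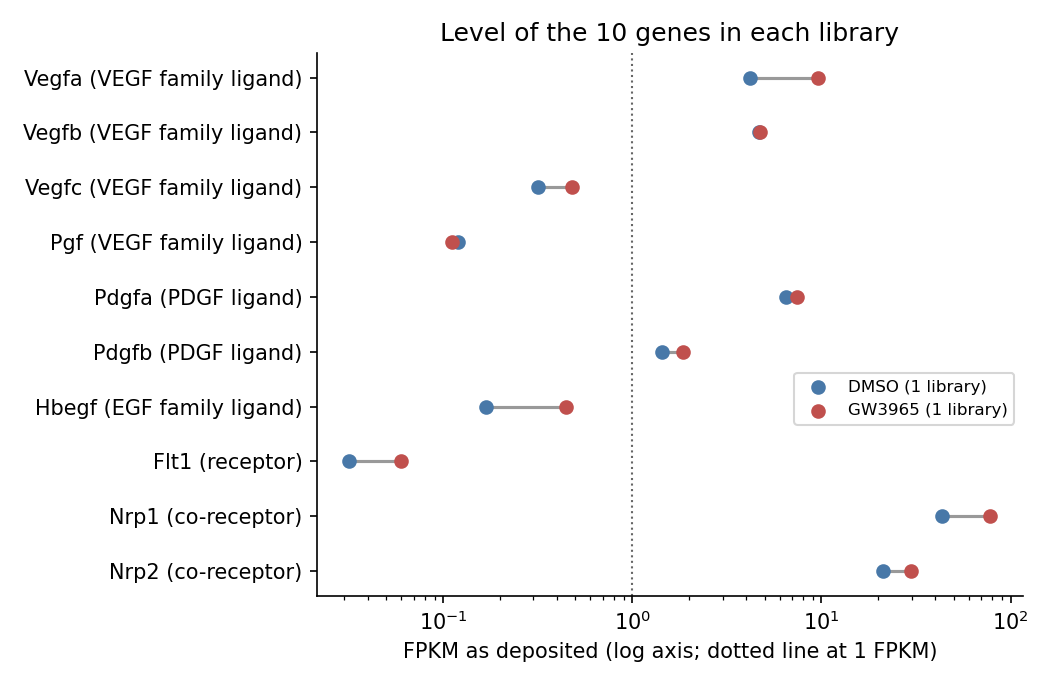
Level of each gene in FPKM as deposited (log axis) in the DMSO library (blue) and the GW3965 library (red), with a dotted line at 1 FPKM. Nrp1 is the highest in both libraries, at 43.7 and 78.3 FPKM, and Vegfc, Pgf, Hbegf and Flt1 lie below 1 FPKM in both.

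Vegfa was the VEGF ligand that differed most in FPKM between the libraries. It had 4.18 FPKM under DMSO and 9.64 under GW3965. The smallest whole numbers of reads that give these values are 2028 and 3459, so the ratio is 2.31, with a 95% counting interval of 2.18 to 2.44. This and the other intervals cover counting error only, not the spread between mice or cultures. On the scale with 1 FPKM added its log2 ratio was 1.04, or 0.80 after centring, rank 110 among the 11889 measured rows. Among 3413 rows with a mean of 5 to 20 FPKM, the band of Vegfa, the quartiles of the ratio were 1.13 and 1.32, and 0.674% of the rows had a ratio of at least 2. Vegfa spans 46016993 to 46032369 of chromosome 17 (GRCm38, GENCODE M21; minus strand), and the value covers its exons together, so splice forms of different reach in tissue cannot be told apart.

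Vegfb, whose promoter stretch is printed above, stood at the same level in both libraries to within counting error. It had 4.70 FPKM under DMSO and 4.74 under GW3965, a ratio of 1.01 (0.903 to 1.13) from 754 and 562 reads. As most rows were higher in the GW3965 column, its log2 ratio of 0.01 became -0.23 after centring. Within a library the ratio of the Vegfa level to the Vegfb level does not depend on scaling, and it was 0.888 in DMSO and 2.03 in GW3965. Vegfa thus made up 43.9% of the summed FPKM of Vegfa, Vegfb, Vegfc, Pgf and Figf (the table's name for Vegfd) in DMSO and 63.3% in GW3965. Vegfb made up 49.4% and 31.1%, so Vegfb was the higher of the pair under DMSO and Vegfa under GW3965. Vegfb spans 6982473 to 6987651 of chromosome 19, minus strand.

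The remaining VEGF ligands were low. Vegfc, the lymphatic growth factor, had 0.316 FPKM under DMSO and 0.481 under GW3965, a ratio of 1.52 (1.05 to 2.21) from 57 and 64 reads. Pgf, placental growth factor, stood at 0.120 and 0.111 FPKM, a ratio of 0.926 (0.420 to 1.98) from 19 and 13 reads. It was the only member lower in GW3965 as deposited, and since its interval spans 1 a difference was not detectable at this depth. Rows at this level tended to have high ratios. Among 1401 rows with a mean of 0.1 to 0.2 FPKM, the band of Pgf, the median ratio was 1.51, and among 1194 rows of 0.2 to 0.5 FPKM, the band of Vegfc, it was 1.31. NONCODE, Gm and Rik rows are left out of these bands. Vegfc spans 54077606 to 54187096 of chromosome 8, plus strand, and Pgf 85166635 to 85177790 of chromosome 12, minus strand.

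**Figure D2:**
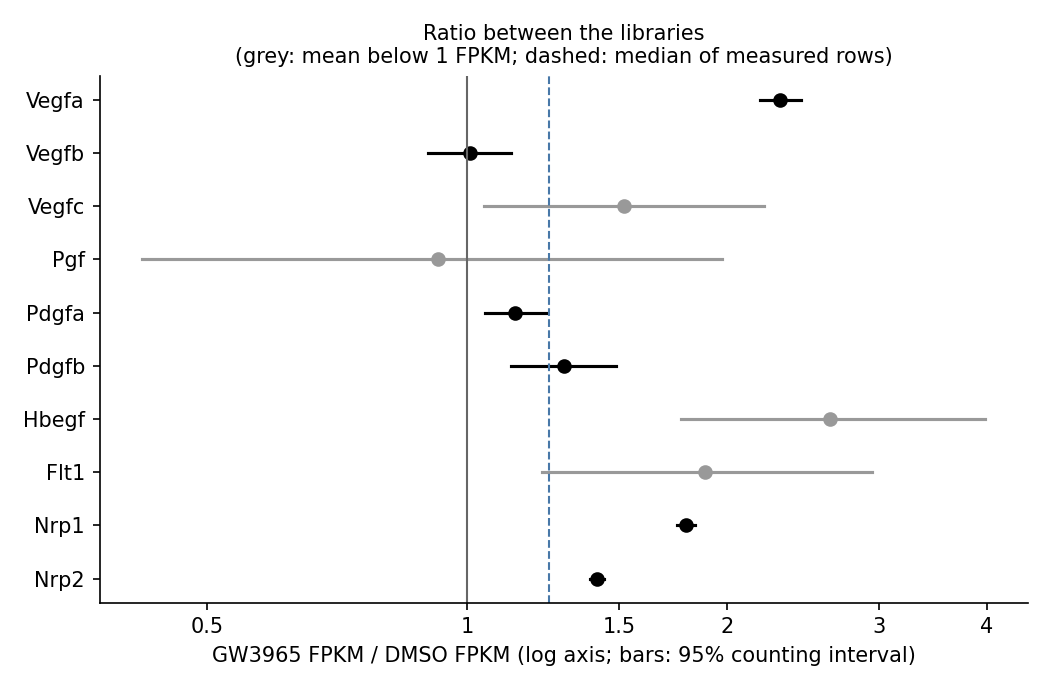
Ratio of GW3965 FPKM to DMSO FPKM (log axis) for each gene with its 95% counting interval. Grey marks genes with a mean below 1 FPKM, the solid line is a ratio of 1 and the dashed line the median ratio of the measured rows, 1.25. The intervals of Vegfa, Hbegf, Nrp1 and Nrp2 lie wholly above the dashed line, those of Vegfb and Pdgfa wholly below it.

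Neither PDGF ligand passed the 1.5-fold limit. Pdgfa, the ligand of PDGFRA, had 6.51 FPKM under DMSO and 7.41 under GW3965, a ratio of 1.14 (1.05 to 1.23) from 1305 and 1098 reads. This interval lies wholly below the median ratio of the measured rows, 1.25, and the ratio is near the lower quartile of its band of 5 to 20 FPKM, 1.13. Pdgfb, which binds both PDGF receptors, had 1.44 and 1.86 FPKM, which makes a ratio of 1.29 (1.12 to 1.49) from 413 and 395 reads. The log2 ratio of Pdgfa was 0.16, or -0.08 when centred, and that of Pdgfb 0.23, or -0.01 when centred, so the sign of both depends on the scaling. Pdgfa made up 79.0% of the summed FPKM of the 4 PDGF ligands in DMSO and 76.9% in GW3965. The antisense gene 6330403L08Rik covers 813 exon bases of Pdgfa. No level was found under that name, and with no stated strand setting reads of the 2 genes cannot be told apart. Pdgfa spans 138976014 to 138997370 of chromosome 5 and Pdgfb 79995874 to 80014977 of chromosome 15, both minus strand.

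Hbegf, a membrane-bound ligand released by shedding, had the highest ratio of the 10 with nothing added, on few reads. It had 0.169 FPKM under DMSO and 0.446 under GW3965, from 39 and 76 reads, a ratio of 2.64 (1.77 to 3.98). In its band of 0.2 to 0.5 FPKM the lower and upper quartiles of the ratio were 1.10 and 1.53, and 7.87% had a ratio of at least 2. With 1 FPKM added its log2 ratio was only 0.31, or 0.06 after centring, and it was not counted as measured.

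**Figure D3:**
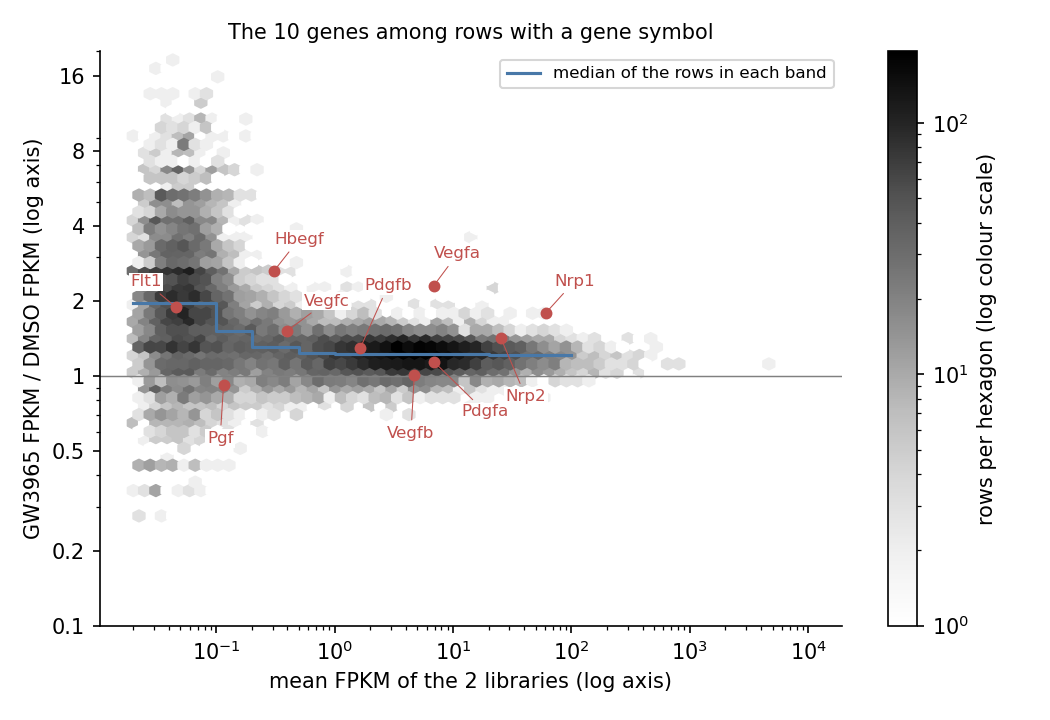
Ratio of GW3965 FPKM to DMSO FPKM against the mean FPKM (both log axes) for 19096 rows other than NONCODE, Gm and Rik rows, and 2 further rows lie outside the drawn range. Grey shows the number of rows, the blue line the median ratio in bands of level, and red points the 10 genes. The median is 1.97 from 0.02 to 0.1 FPKM and 1.22 from 2 to 5 FPKM; Flt1 sits on the cloud of low rows, Vegfa and Nrp1 above the cloud at their level.

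Flt1, the VEGF receptor among the 10, was barely detected. It had 0.0318 FPKM under DMSO and 0.0600 under GW3965, from 38 and 53 reads, a ratio of 1.89 (1.22 to 2.94). Among 6664 rows with a mean of 0.02 to 0.1 FPKM the median ratio was 1.97, above that of Flt1. Olfactory receptor genes, which mainly serve the nose, had median levels of 0.0261 FPKM under DMSO and 0.0690 under GW3965 over 1083 rows, which is about the level of Flt1. The table gives a single value per gene, so membrane-bound and soluble FLT1 forms were not separated over its span from 147561604 to 147726011 of chromosome 5, minus strand.

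The neuropilins were by far the most abundant of the 10 genes. Nrp1 had 43.7 FPKM under DMSO and 78.3 under GW3965, a ratio of 1.79 (1.75 to 1.84). Its log2 ratio of 0.83 ranked 164 among the measured rows. In the neuropilins' band of 20 to 100 FPKM, with 1044 rows, the quartiles of the ratio were 1.12 and 1.31, and 4.89% of the rows had a ratio of at least 1.5. After centring it was 0.59, just at the limit of 1.5-fold (0.58 on the log2 scale), and it was below the limit, at 0.53, when the columns were scaled to the same upper quartile. Nrp2, which also binds VEGFC, stood at 21.1 and 29.9 FPKM, a ratio of 1.42 (1.39 to 1.44), and a log2 ratio of 0.48, or 0.24 after centring. The level of Nrp1 over that of Nrp2 was 2.07 in DMSO and 2.62 in GW3965, so that Nrp1 made up 67.4% and 72.4% of the summed neuropilin FPKM. For these 2 genes several combinations of reads give the printed values, and the intervals use the smallest, which are the widest. The lengths behind their values were not settled either, and the level of Nrp1 over that of Nrp2 depends on them. Nrp1 lies on chromosome 8 at 128358604 to 128503363 and Nrp2 on chromosome 1 at 62703285 to 62818695, both on the plus strand of GRCm38.

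**Figure D4:**
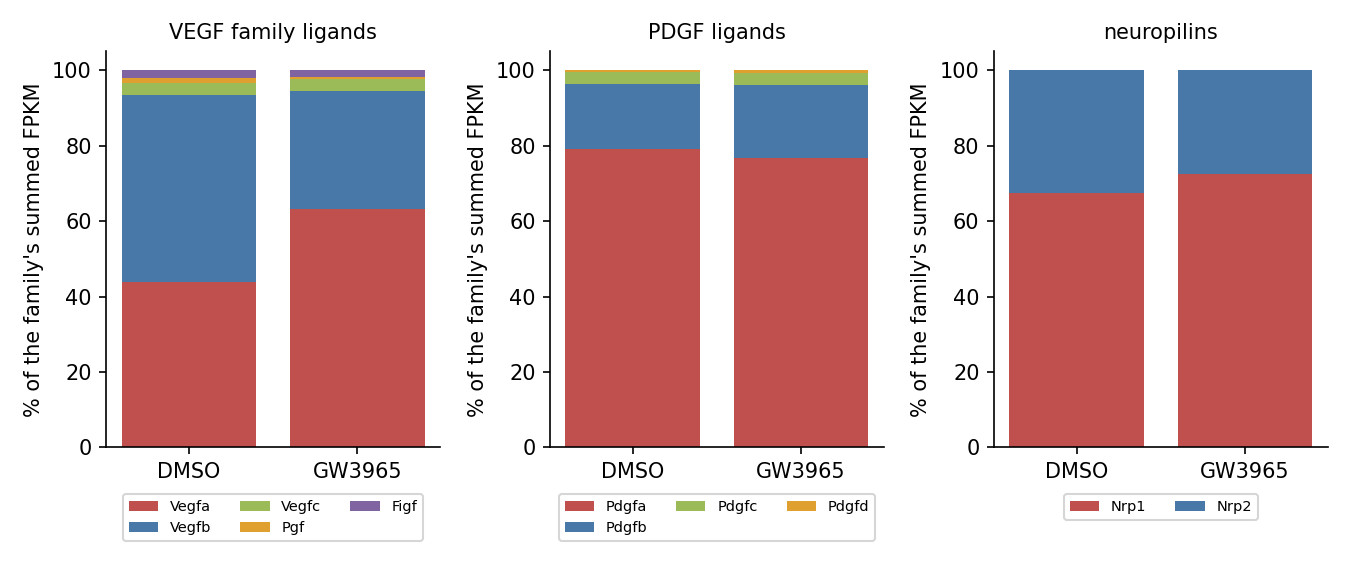
Share of each gene in the summed FPKM of its family, in percent, for VEGF ligands, PDGF ligands and neuropilins in the DMSO and the GW3965 library. The Vegfa share is 43.9% and 63.3%, while the Pdgfa share is 79.0% and 76.9%.

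Partners of these ligands and co-receptors were looked at next, in lists of genes that are not members. Of 8 further receptors 2 were measured and 0 were higher or lower. Of all measured rows 3.46% were higher and 0.0757% lower, so nothing is read from 0 among so few. Kdr, the main signalling receptor for VEGF, had 1.71 FPKM under DMSO and 1.70 under GW3965, a ratio of 0.994 (0.918 to 1.08). Pdgfra had 1.43 and 2.09 FPKM, a ratio of 1.46 (1.36 to 1.58). The others were below a mean of 1 FPKM, with Egfr at 0.658 and 1.13 FPKM, Pdgfrb at 0.195 and 0.249, Flt4 at 0.0724 and 0.0719, and Erbb4 at 0.0339 and 0.0587. None of 9 further ligands of the VEGF, PDGF and EGF families was measured, and Figf had 0.194 and 0.250 FPKM. Nrp1 stood at 25.5 times the level of Kdr in DMSO and at 46.1 times in GW3965.

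Of the 13 semaphorin, plexin and adaptor genes that work with neuropilins 4 were measured and 0 were higher or lower. With 3.46% of all measured rows higher and 0.0757% lower, 0 of 4 is near these shares and nothing is read from it. The 7 Sema3 genes, which encode the class 3 ligands, were all below 0.3 FPKM in both libraries. Plxna1, a plexin that signals for NRP1-bound semaphorins, had 132 FPKM under DMSO and 130 under GW3965. Plxna2 had 1.32 and 1.55 FPKM, Gipc1, which binds the tail of NRP1, 16.4 and 18.6 FPKM, and Plxnd1 26.0 and 26.1 FPKM. The Plxna1 level was thus 3.03 times that of Nrp1 in DMSO and 1.66 times in GW3965.

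Of 22 other angiogenic factors and their receptors 9 were measured, 3 were higher and 0 lower. Among these, Angptl4 reached the mean for measured genes only through the GW3965 library, and with a mean of at least 5 FPKM 2 were higher. The list's median log2 ratio was 0.27, against 0.24 for all 11889 measured rows, of which 3.46% were higher and 0.0757% lower. Spp1, the secreted matrix protein osteopontin, had 598.5 FPKM under DMSO and 1059 under GW3965, the growth factor Igf1 10.1 and 18.2 FPKM, and Angptl4, an inhibitor of lipoprotein lipase, 0.689 and 1.88 FPKM. After centring, their log2 ratios were 0.58, 0.54 and 0.52, that of Spp1 lying just under the limit. On that scale 0 of the 9 were higher, against 1.38% of all measured rows.

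Genes of the oxygen response were described because Vegfa is among its best known targets. Of 11 genes of the sensing machinery 9 were measured and 0 were higher or lower, and the median of their log2 ratios was 0.26 (0.02 centred). Hif1a had 14.0 FPKM under DMSO and 20.6 under GW3965, a ratio of 1.47 (1.43 to 1.51), Epas1 13.1 and 17.6 FPKM, and Tceb1, part of the complex that marks HIF for breakdown, 4.98 and 6.97 FPKM. Of 20 hypoxia-inducible genes other than Vegfa 15 were measured, 2 were higher and 0 lower, on both scales, and the median of their log2 ratios was 0.37 (0.12 centred). Over all measured rows 3.46% were higher as deposited and 1.38% centred. Ndrg1 stood at 5.82 and 17.6 FPKM, a ratio of 3.03 (2.91 to 3.14), and Pfkfb4, a regulator of glycolysis, 5.71 and 11.5 FPKM, a ratio of 2.02 (1.93 to 2.11). Pgk1, a glycolytic enzyme, had 16.7 and 25.0 FPKM, a log2 ratio of 0.56 and so just under the limit. Some genes of that list had ratios near 1: the glucose transporter Slc2a1 had 11.5 and 10.8 FPKM, Pfkfb3 5.62 and 5.89 FPKM, Hk2 10.3 and 10.4 FPKM and Car9, which was below the mean for measured genes, 0.741 and 0.750 FPKM. These 4 were picked after their values were seen. As the median ratio of the measured rows was 1.25, their centred log2 ratios were below 0, at -0.33, -0.19, -0.23 and -0.24. Other genes of the list lay above 0 when centred: Bnip3l at 0.16, Kdm3a at 0.15, Bnip3 and P4ha1 at 0.13 and Ero1l at 0.12. They too were picked after their values were seen. The part of the oxygen response in the Vegfa level was not tested.

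**Figure D5:**
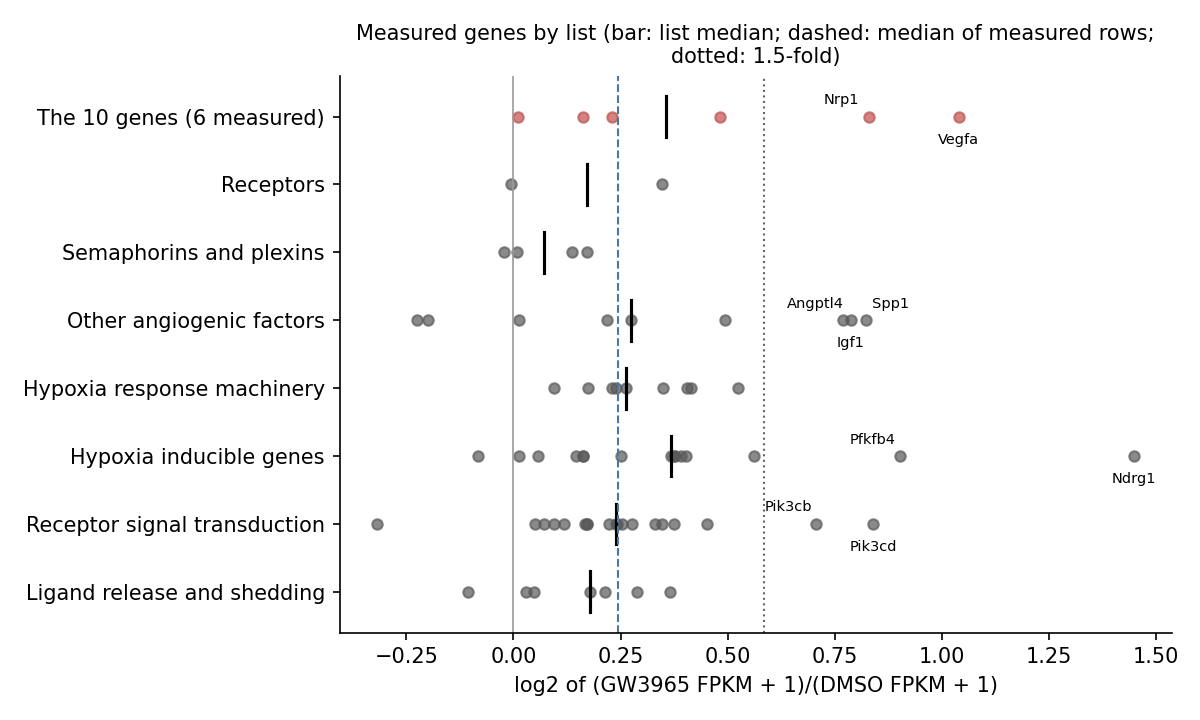
Log2 of (GW3965 FPKM + 1)/(DMSO FPKM + 1) of each measured gene, by list, with the list's median as a bar. The dashed line is the median of all measured rows, 0.24, and the dotted line 1.5-fold. Vegfa and Nrp1 lie to the right of the dotted line, as do 7 of the 65 measured genes of the partner lists, with Ndrg1 farthest out at 1.45. Of all measured rows 3.46% do.

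Signal transduction genes downstream of the receptors had 19 measured members of 20, with 2 higher, 0 lower and a median log2 ratio of 0.24, the same as all measured rows. The 2 were subunits of phosphoinositide 3-kinase: Pik3cd had 4.47 FPKM under DMSO and 8.79 under GW3965, and Pik3cb 15.8 and 26.4 FPKM. Crk, an adaptor, had 13.2 and 18.4 FPKM. After centring 1 of the 19, Pik3cd, was higher, at a log2 ratio of 0.60. The shares of all measured rows that were higher were 3.46% as deposited and 1.38% centred. Of 10 genes for ligand release and shedding 7 were measured and 0 were higher or lower, among them the sheddase Adam10 with 17.6 and 23.0 FPKM, Adam9 with 20.5 and 25.3 FPKM and the convertase Furin with 7.39 and 8.72 FPKM.

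The labelled cell type was checked against markers of macrophages and of other cells that a peritoneal sample could hold. All 8 macrophage markers were measured, between 6.79 and 4052.5 FPKM under DMSO, with a sum of 5051 and 6051 FPKM, and 1 was higher, the engulfment receptor Mertk, with 6.79 FPKM under DMSO and 13.9 under GW3965. Of 10 endothelial markers 2 were measured, Kdr and Vwf (3.42 and 3.13 FPKM), while Pecam1 (0.0700 and 0.101 FPKM) and Cdh5 (0.112 and 0.127 FPKM) were near 0; their summed level was 5.83 FPKM under DMSO and 5.89 under GW3965. Of 11 mesothelial and fibroblast markers 6 were measured and 1 was higher, Dcn, with 6.91 and 11.6 FPKM. Their summed level was 20.4 FPKM under DMSO and 30.6 under GW3965. Markers of platelets, which store and release PDGF and VEGF, had a summed level of 4.55 and 5.50 FPKM, nearly all of it from Pf4, which macrophages can also express, and Itga2b was near 0. Mast cell markers had summed levels of 0.775 and 1.91 FPKM, B cell markers 2.67 and 3.94, T and NK cell markers 0.380 and 0.617, and neutrophil markers 3.50 and 3.95 FPKM. Nearly all of the neutrophil sum came from S100a8, with 3.29 and 3.60 FPKM, while S100a9 had 0.145 and 0.112 FPKM. The summed levels of all 8 marker lists were thus higher under GW3965, the direction of Vegfa and Nrp1. The column was also higher as a whole, with a median ratio of 1.25. The ratio was highest for the mast cell list, but 0 of its 5 markers were measured. Cpa3 had a ratio of 2.75 (1.785 to 4.30), Tpsb2 2.63 (1.45 to 4.93) and Cma1 2.50 (1.42 to 4.55). In their band of 0.2 to 0.5 FPKM the upper quartile of the ratio was 1.53, and 7.87% of the rows had at least 2. Kit, at 2.36, and Mcpt4, at 1.62, lay in lower bands, with median ratios of 1.97 and 1.51. Centred, the median log2 ratio was -0.29 for measured endothelial, 0.003 for macrophage and 0.13 for mesothelial and fibroblast markers. Of 20 measured markers 2 were higher, against 3.46% of all measured rows. The part of other cells in the values of Vegfa and Nrp1 was not tested.

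The protein-coding rows nearest to Vegfa over the 2 libraries, by straight-line distance on the log2(FPKM + 1) scale, were Abcc3, a transporter of organic anions (3.90 and 10.4 FPKM, distance 0.130), Pik3cd (0.144) and Pmvk, an enzyme of the mevalonate pathway (4.67 and 9.15 FPKM, 0.148). With 2 libraries such closeness only says that the levels are alike.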

How the data were processed

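The study sequenced RNA of peritoneal macrophages, 1 library for DMSO and 1 for GW3965. The authors deposited FPKM values per gene. Per the submitters' processing notes, STAR 2.3.0, HTSeq 0.5.4p3 and the build GRCm38 (mm10) were used, with no role or order given; the sources used here do not name an annotation, a strand setting, the treatment of multi-mapped reads or a filter. Libraries were made with a TruSeq RNA kit, per the labels' protocols.

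The members and lists were chosen with earlier results of these data known. The named genes are the 10 members, up to 3 measured genes of each list with the largest absolute log2 ratio, the members' partner receptors and ligands, 2 LXR targets and the 3 rows nearest Vegfa. Other examples are named as such or as members of a marker list.

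Whole reads leave steps in FPKM, and these gave the depth: 97.0% of 29845 low rows gave a ratio of whole reads with 1 factor between the libraries, 1.35, against 4.45% with the factor moved by 1%. Alternatives were other pseudocounts, filters, limits and scalings. Exon lengths of GENCODE M21, reduced by 99 bases, gave the best estimate of depth, about 102000000 and 75300000 reads. The shares above bear on the factor, not on the depth itself. Reads of a gene are the smallest whole numbers that, with a whole length, give both values; they may be too small by a whole factor, which widens the interval. Counting intervals are exact (Clopper-Pearson, 95%). Promoters are from RefSeq (GRCm38.p6). Intervals came from scipy 1.17.1, tables from pandas 2.3.3 and numpy 2.4.6, figures from matplotlib 3.10.9, all under Python 3.11.15.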

Additional observations from a re-analysis of the deposited data

How the results depend on the processing

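No paired analysis was possible because there is only 1 library of either kind. Of the 10 genes, 2 were higher as deposited and 1, Vegfa, with the same upper quartile or at 2-fold. The log2 ratio of Vegfa, 1.04 as deposited, was 1.19 with a pseudocount of 0.1, 0.80 centred, 0.77 with the same upper quartile and 0.81 centred without NONCODE, Gm and Rik rows. That of Nrp1, 0.83, was 0.59 centred, 0.53 with the same upper quartile and 0.60 without those rows. Of 50 alternative values of the members 12 turned sign, all of them from scaling and of Vegfb, Vegfc, Pdgfa, Pdgfb and Flt1.

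Against 411 rows higher, there were 1024 with a pseudocount of 0.1, 224 at a mean of at least 5 FPKM, 164 centred, 166 with equal upper quartiles, 117 at 2-fold and 81 centred without NONCODE, Gm and Rik rows. Against 9 lower, there were 20, 5, 40, 35, 0 and 17, and 14 with a pseudocount of 0.5 and 17 with no filter. Of the partner lists 7 genes were higher, 3 centred, 2 with equal upper quartiles, 1 at 2-fold and 4 without those rows. Of the marker lists 2 were higher, 1 under each of the 3 scalings and 0 at 2-fold. Apart from stricter limits and fewer rows, the cause was not tested. Depth limits the low genes, since a single read on 1 kb adds 0.0109 FPKM under DMSO and 0.0147 under GW3965.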

Other observations

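The lengths that the authors divided by were recovered together with the reads, and on the estimate of depth used here they differ from GENCODE M21. The smallest whole solutions were 4867 bases for Vegfa against 4285 exon bases in M21, 1674 against 1605 for Vegfb, 2066 against 3119 for Pdgfa, 2920 against 4161 for Pdgfb, 2363 against 4834 for Hbegf, 11837 against 13504 for Flt1, 1868 against 2449 for Vegfc and 1653 against 2903 for Pgf. For Nrp1 (2758 against 9785) and Nrp2 (9957 against 11842) other combinations of reads and length give the same values, so their lengths were not settled. A whole multiple of each of these numbers of positions would give the same values. The length is shared by both libraries and drops out of every ratio between them, but levels set side by side between genes, such as Nrp1 over Kdr or Nrp2, depend on it.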
